A study of Mus musculus with 2 samples.

Results

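The transcripts of the mitochondrial genome were compared in small intestine of 2 mouse genotypes. The members are all genes of the deposited table whose symbol begins with mt-, which gave 16 of 27275 genes: 13 that encode proteins, 2 ribosomal RNAs and 1 transfer RNA. The mouse mitochondrial genome carries 37 genes in the GENCODE annotation, and the other 21, all transfer RNA genes, were not analysed here. The knockout (KO) library is labelled Spibfl/flVillin-Cre. Its floxed Spib gene, which encodes an ETS family transcription factor, is removed by a Cre recombinase under the villin promoter, active in gut epithelium. The library titled WT has the genotype label Spib+Villin-Cre, so both labels name the Cre. The tissue was proximal small intestine of naïve animals, and the number of mice behind each library, their age and their sex are not stated in the sources used here. There was 1 library per genotype. No value below therefore has a biological replicate, no test of genotype was possible, and every difference is one between these 2 libraries.

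Mitochondrial DNA is a small circle that is transcribed from both strands into long RNAs, which are cut into single transcripts mostly at the transfer RNAs that lie between the genes. Its protein-coding genes all specify core subunits of the respiratory chain and of ATP synthase, whose other subunits come from nuclear genes. Its ribosomal and transfer RNAs serve the protein synthesis of the organelle. Absorptive enterocytes are rich in mitochondria, which power nutrient transport and fat handling. The libraries were made by SMART-Seq II, which primes on poly(A) tails. Most mitochondrial mRNAs carry such tails, the ribosomal RNAs carry short ones, and mature transfer RNAs carry none. Nuclear chromosomes also hold old insertions of mitochondrial DNA, whose sequence can equal that of the organelle.

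Such an insertion on chromosome 1 matters for reading the values. The GENCODE M21 transcripts (build GRCm38) include 7 pseudogenes that lie side by side on the minus strand of chromosome 1 and match the consecutive mitochondrial genes mt-Co1 (its 3′ part), mt-Co2, mt-Atp6, mt-Co3, mt-Nd3, mt-Nd4l and mt-Nd4 (its 5′ part). The matches span chrM:6390-11042, a stretch of 4653 bases, and chr1:24611535-24616188, a stretch of 4654 bases. The spacing of the matches is the same in both genomes except for 1 base between mt-Nd3 and mt-Nd4l. mt-Atp8 has no pseudogene of its own in the annotation, but the 233 bases between the matches of mt-Co2 and mt-Atp6 on the mitochondrial genome, which hold most of it, correspond to 233 bases on chromosome 1. The sequence of that interval on chromosome 1 was not analysed here.

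The copies are shown because their identity decides whether a read can be placed. mt-Nd4l, a small membrane subunit of complex I, is identical to the pseudogene Gm10222 over all 294 bases aligned, given here for mt-Nd4l at chrM:9877-10170 (plus strand) and for Gm10222 at chr1:24612407-24612700 (minus strand):
mt-Nd4l: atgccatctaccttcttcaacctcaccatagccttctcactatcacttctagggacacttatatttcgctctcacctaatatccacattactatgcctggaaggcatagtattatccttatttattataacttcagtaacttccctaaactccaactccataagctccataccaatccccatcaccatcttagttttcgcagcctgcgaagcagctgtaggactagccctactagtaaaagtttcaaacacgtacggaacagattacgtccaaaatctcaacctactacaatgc
Gm10222: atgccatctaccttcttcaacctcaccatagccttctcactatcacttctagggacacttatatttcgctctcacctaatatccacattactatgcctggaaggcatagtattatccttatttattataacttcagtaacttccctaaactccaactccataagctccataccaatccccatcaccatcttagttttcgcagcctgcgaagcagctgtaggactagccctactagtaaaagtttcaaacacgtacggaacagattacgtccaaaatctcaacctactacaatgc

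mt-Nd3, another subunit of complex I, differs from its copy Gm28438 by a single base, T3C, counted from the first base of the gene, and the next 342 bases are identical. The first 61 bases are given for mt-Nd3 at chrM:9459-9519 (plus strand) and for Gm28438 at chr1:24613059-24613119 (minus strand), with the differing base in capitals:
mt-Nd3: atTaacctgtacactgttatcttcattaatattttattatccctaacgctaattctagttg
Gm28438: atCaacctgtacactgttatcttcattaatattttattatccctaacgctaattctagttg

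mt-Co1, which encodes the catalytic subunit of cytochrome c oxidase, shows the edge of the insertion. In the 61 bases from position 1054 of the gene, the chromosome 1 copy Gm29216 differs at 6 bases, the last of which is A1066T, and the remaining 479 bases of the gene are identical to it. An older copy on chromosome 2, Gm13340, covers the whole gene at 97.6% identity and differs from it at 2 bases of the same window. Capitals mark the bases at which mt-Co1 (chrM:6381-6441, plus strand) and Gm29216 (chr1:24616137-24616197, minus strand) differ, and in Gm13340 (chr2:22588534-22588594, minus strand) those that differ from mt-Co1:
mt-Co1: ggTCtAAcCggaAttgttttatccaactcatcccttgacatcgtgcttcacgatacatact
Gm29216: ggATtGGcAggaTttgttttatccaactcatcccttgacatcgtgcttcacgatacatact
Gm13340: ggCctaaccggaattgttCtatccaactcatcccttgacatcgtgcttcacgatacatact

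The depth of the libraries could be read from the values. The FPKM (reads scaled to gene length and library size) of all 16 members corresponded to whole reads, on denominators of 17658566 reads for the KO library and 17425640 reads for the WT library. Folds below are plain ratios of FPKM, KO over WT, with exact Clopper-Pearson 95% intervals that cover counting error only. Amplified reads were counted without molecular identifiers, so several can stem from 1 molecule and the intervals can be too narrow. Spib itself had 0.592 FPKM in the KO library, from 30 reads, and 4.94 FPKM in the WT library, from 247 reads, in the direction of the labels.

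The mitochondrial transcripts took a larger share of the KO library. Together they held 10.01% of the FPKM sum in the KO library and 7.65% in the WT library. In reads, they numbered 849342 or 4.81% of the denominator in the KO library (4.800% to 4.820%) and 629820 or 3.61% in the WT library (3.61% to 3.62%). Their summed reads were 1.33-fold higher in the KO library (1.33 to 1.34). The FPKM sum of all other genes differed little, at 339493 in the KO library and 341294 in the WT library. In whole tissue, more cells rich in mitochondria and more mitochondrial RNA per cell cannot be told apart.

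The class sums differed in direction. Protein-coding transcripts summed to 35225 FPKM in the KO library and 25965 FPKM in the WT library, a ratio of 1.36. The ribosomal RNAs summed to 914 FPKM in the KO library and 1051 FPKM in the WT library, a ratio of 0.869. That ratio rests on mt-Rnr1, since mt-Rnr2 had a fold of 1.01. The only transfer RNA of the table, mt-Tp, was 1.30-fold higher in the KO library. The sum of coding transcripts was thus 38.5 times that of ribosomal RNA in the KO library and 24.7 times in the WT library.

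With the log2 ratio of FPKM + 1, 14 of the 16 members were higher in the KO library, against 41.3% of the 13479 genes that reached 1 FPKM in at least 1 library, and 2 were lower, against 58.7%. At least 1.25-fold higher, a bound chosen after the values were seen, were 13 of 16 members, against 8.62% of all compared genes. At least 2-fold higher was only mt-Co3, 1 of 16, against 1.61%, and none was at least 2-fold lower, against 2.51%. The median log2 ratio was 0.59 over the 13 coding members and -0.05 over all compared genes.

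**Figure D1:**
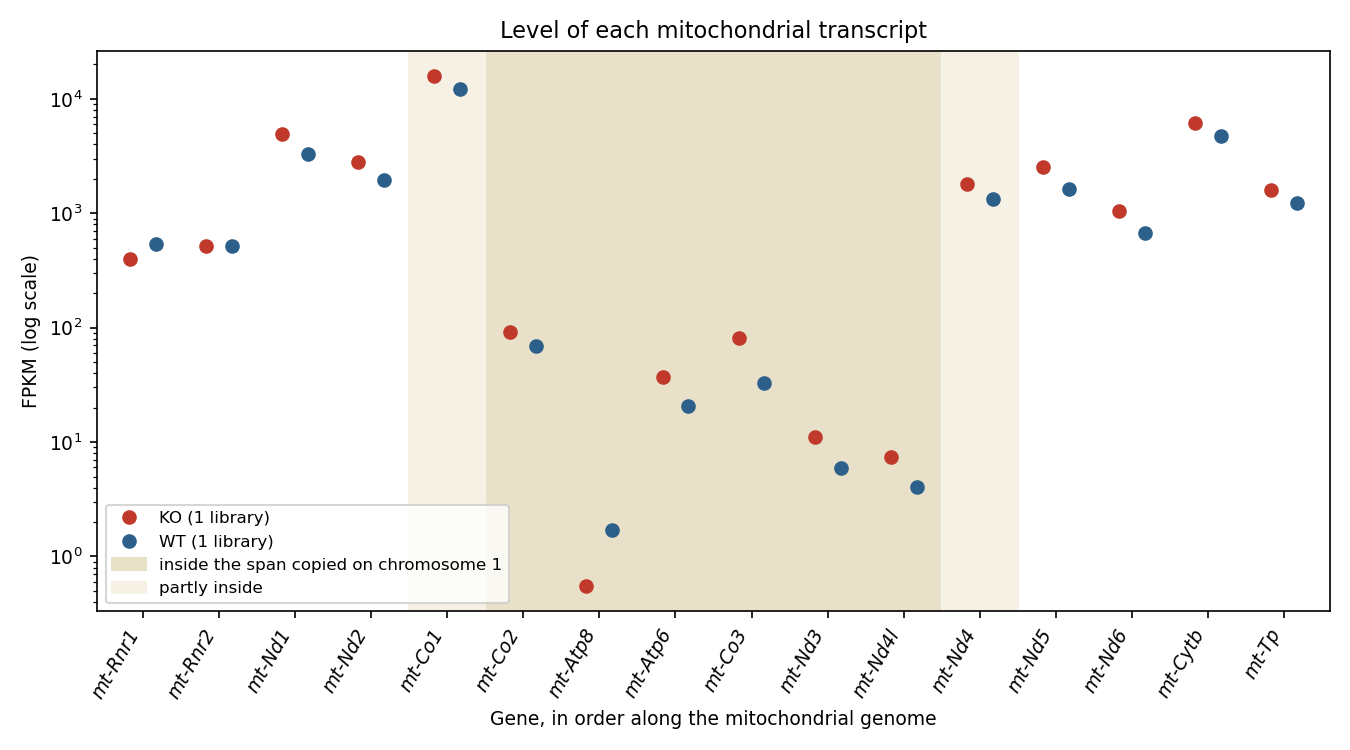
FPKM of the 16 mitochondrial transcripts (vertical axis, log scale) in order along the mitochondrial genome, with 1 red point for the KO library and 1 blue point for the WT library; dark shading marks the genes that lie inside the span copied on chromosome 1 and light shading those partly inside it. The 6 shaded inner genes sit between 0.555 and 91.1 FPKM in the KO library and between 1.69 and 68.5 FPKM in the WT library, below all other members.

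The 7 coding genes that lie outside the copied span or only partly in it were abundant and all higher in the KO library as deposited, by 1.29-fold to 1.55-fold. Scaling the libraries to equal sums of these 7 genes by construction lowers all KO values by a log2 factor of -0.44. The log2 ratios of mt-Co1, mt-Cytb and mt-Nd4, and of mt-Co2 and mt-Tp described below, were then between -0.07 and -0.02. Those of mt-Nd1, mt-Nd2, mt-Nd5 and mt-Nd6 were between 0.09 and 0.19. mt-Co1 was the most abundant gene of the whole table in the WT library and the second in the KO library. It had 15777 FPKM in the KO library, from 430428 reads, and 12238 FPKM in the WT library, from 329489 reads. That is 1.289-fold higher (1.283 to 1.295), the smallest of the 7 folds. mt-Cytb, the mitochondrially encoded subunit of complex III, had 6098 FPKM in the KO library and 4699.9 FPKM in the WT library, 1.30-fold higher (1.29 to 1.31). As listed, the order of the 7 levels, highest to lowest, was mt-Co1, mt-Cytb, mt-Nd1, mt-Nd2, mt-Nd5, mt-Nd4 and mt-Nd6 in both libraries. The FPKM of mt-Nd4 and mt-Co1 is scaled to full length although a copy matches part of each gene. Their levels, and the place of mt-Nd4 in this order, are therefore uncertain.

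Among these 7 genes, the 5 of complex I, which takes electrons from NADH, had higher folds than mt-Co1 of complex IV and mt-Cytb of complex III. mt-Nd1, which helps to form the quinone site, had 4938 FPKM in the KO library and 3292 FPKM in the WT library, 1.50-fold higher (1.48 to 1.52). The proton-pumping subunit mt-Nd2 had 2808 FPKM in the KO library and 1943 FPKM in the WT library, 1.45-fold higher (1.43 to 1.47). Another pump subunit, mt-Nd5, had 2539 FPKM in the KO library and 1643 FPKM in the WT library, and its fold of 1.55 (1.53 to 1.56) was the highest of the 7. mt-Nd4, the third pump subunit, had 1792 FPKM in the KO library and 1338 FPKM in the WT library, 1.34-fold higher (1.32 to 1.36). Of mt-Nd4, 63.6% of the length is matched by the copy Gm28439, and 31.3% of mt-Co1 is matched by Gm29216. The counting intervals of mt-Nd1, mt-Nd2 and mt-Nd5 did not overlap those of mt-Co1, mt-Cytb and mt-Nd4. Summed over complex I, the members had 13141 FPKM in the KO library and 8903 FPKM in the WT library, a ratio of 1.48. Complex IV had 15948 FPKM in the KO library and 12340 FPKM in the WT library, a ratio of 1.29. Nearly all of the complex IV sum was mt-Co1, so this ratio repeats its fold. The low-level members mt-Co2 and mt-Co3, described below, had folds of 1.33 and 2.44. How far such differences vary between animals could not be measured.

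Neighbours on opposite strands were also set side by side. mt-Nd6 is the only coding gene of the light strand transcript and overlaps the end of mt-Nd5 by 14 bases. It had 1044 FPKM in the KO library and 678 FPKM in the WT library, 1.54-fold higher (1.49 to 1.59), beside the 1.55 of mt-Nd5. On its other side, 74 bases away, mt-Cytb lies on the opposite strand too, and its interval around 1.30 did not overlap that of mt-Nd6. The ratio of mt-Nd5 to mt-Nd6 was 2.43 in the KO library and 2.42 in the WT library. mt-Tp, which encodes the transfer RNA for proline, lies on the strand opposite to mt-Cytb, 67 bases beyond its end. It had 1609 FPKM in the KO library, from 1904 reads, and 1240.2 FPKM in the WT library, from 1448 reads, and its fold of 1.30 (1.21 to 1.39) equalled that of mt-Cytb. The ratio of mt-Cytb to mt-Tp was 3.79 in each library. Strandedness of the libraries is not stated in the sources used here. Reads of mt-Nd6 and mt-Tp can therefore not be told apart from reads of RNA of the other strand at the same place. mt-Tp is 67 bases long, which makes its FPKM depend strongly on how reads longer than the gene were counted. Its sequence at chrM:15356-15422 (minus strand), with the anticodon for proline in capitals in the middle of a 7-base loop closed by a 5-base stem, is shown because it is the only member of its class:
mt-Tp: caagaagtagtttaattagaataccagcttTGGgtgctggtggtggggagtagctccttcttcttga

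Of the ribosomal RNAs, mt-Rnr1 was lower in the KO library and mt-Rnr2 was nearly equal in both libraries. mt-Rnr1, the 12S RNA of the small ribosomal subunit, had 395 FPKM in the KO library, from 6669 reads, and 536 FPKM in the WT library, from 8922 reads. Its fold of 0.738 (0.714 to 0.761) made it the only well-covered member that was lower in the KO library. mt-Rnr2, the 16S RNA of the large subunit, had 518 FPKM in the KO library and 515 FPKM in the WT library, a fold of 1.01 (0.983 to 1.03). Its direction depends on the scaling, with a log2 ratio of -0.02 when both libraries are given the same FPKM sum and -0.43 when they are given the same sum of the 7 abundant coding genes. The ratio of mt-Rnr2 to mt-Rnr1 was 1.31 in the KO library and 0.961 in the WT library. In cells these RNAs are far more abundant than the mRNAs, while here each lay below every coding gene outside the copied span. The values describe the tailed or primed part of these RNAs that the method copied, and the length of tails was not measured.

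**Figure D2:**
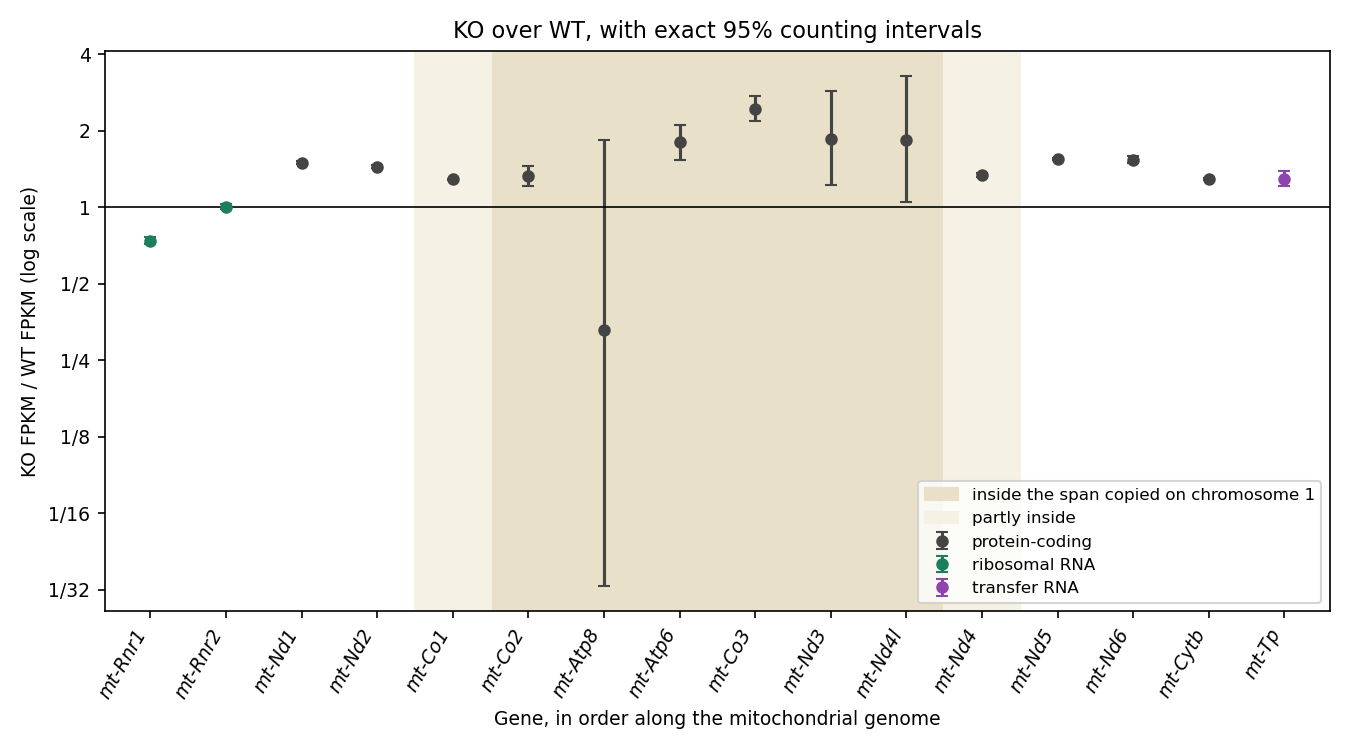
KO over WT FPKM of each mitochondrial transcript (vertical axis, log scale) in genome order, with 1 library per genotype; points are folds, bars are exact 95% counting intervals, colours give the class and shading the span copied on chromosome 1 as before. mt-Rnr1 lies below 1, mt-Rnr2 at 1, the unshaded and lightly shaded coding genes between 1.29 and 1.55, and the intervals widen inside the copied span.

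The 6 coding genes inside the copied span were listed at far lower levels in both libraries. They summed to 227 FPKM in the KO library and 134 FPKM in the WT library, which is 0.603% of the FPKM of all mitochondrial members in the KO library and 0.473% in the WT library. The lowest coding gene outside the span, mt-Nd6, was 11.5 times the highest gene inside it in the KO library and 9.91 times in the WT library. mt-Co2, the subunit of cytochrome c oxidase that receives electrons from cytochrome c, had 91.1 FPKM in the KO library and 68.5 FPKM in the WT library. mt-Co1 was thus 173 times mt-Co2 in the KO library and 179 times in the WT library, although both genes belong to the same transcript and the same complex. mt-Nd4 was 241 times its neighbour mt-Nd4l in the KO library and 329.6 times in the WT library.

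Within the span, 5 of the 6 genes were higher in the KO library, with folds that scattered more widely. mt-Co2 was 1.33-fold higher (1.21 to 1.46). mt-Co3, the third core subunit of cytochrome c oxidase, had 80.5 FPKM in the KO library, from 1114 reads, and 32.9 FPKM in the WT library, from 450 reads, and its fold of 2.44 (2.19 to 2.73) was the highest of all members. mt-Atp6, the proton channel subunit of ATP synthase, had 36.8 FPKM in the KO library and 20.5 FPKM in the WT library, 1.80-fold higher (1.53 to 2.11). mt-Nd3 had 11.1 FPKM in the KO library, from 68 reads, and 5.94 FPKM in the WT library, from 36 reads, 1.86-fold higher (1.23 to 2.87). mt-Nd4l had 7.44 FPKM in the KO library, from 39 reads, and 4.06 FPKM in the WT library, from 21 reads, 1.83-fold higher (1.05 to 3.28). mt-Atp8, a small subunit of ATP synthase, had 0.555 FPKM in the KO library, from 2 reads, and 1.69 FPKM in the WT library, from 6 reads, a ratio of 0.329 whose interval of 0.0325 to 1.84 spans 1.

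mt-Atp8 also shares its last 43 bases with the start of mt-Atp6, in another reading frame, so that reads in this stretch belong to both genes. The shared stretch, chrM:7927-7969 (plus strand), is shown with the start codon of mt-Atp6 in capitals:
shared by mt-Atp8 and mt-Atp6: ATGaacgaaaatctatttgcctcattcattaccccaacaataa

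For genes inside the span, the chromosome 1 copies were themselves listed at 0.552 to 4.08 times the level of their gene. Gm28661 had 51.0 FPKM in the KO library and 40.1 FPKM in the WT library, beside the values of mt-Co2 above. Gm10925 had 134 FPKM in the KO library and 83.5 FPKM in the WT library, 3.63 times mt-Atp6 in the KO library and 4.08 times in the WT library. Gm28437, the copy of mt-Co3, had 44.4 FPKM in the KO library and 32.7 FPKM in the WT library. Gm28438 had 13.1 FPKM in the KO library and 7.82 FPKM in the WT library, and Gm10222 had 6.93 FPKM in the KO library and 3.90 FPKM in the WT library. All 7 copies were higher in the KO library, from 1.27-fold for Gm28661 (1.13 to 1.44) to 3.50-fold for Gm28439 (2.97 to 4.15), the copy of the first 63.6% of mt-Nd4.

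Adding the reads of a gene and its copy did not bring the inner genes near the others. Per length of the mitochondrial gene, mt-Atp6 with Gm10925 came to 169.97 FPKM in the KO library and 104 FPKM in the WT library. mt-Co2 with Gm28661 came to 142 FPKM in the KO library and 108 FPKM in the WT library. The highest of the 5 inner pairs was that of mt-Atp6 in the KO library and that of mt-Co2 in the WT library. mt-Co3 with Gm28437 came to 125 FPKM in the KO library and 65.6 FPKM in the WT library, and the fold of the pair was 1.90 (1.75 to 2.07), below 2. With copies added, no member was at least 2-fold higher. How reads that fit both places were treated before deposit is not stated in the sources used here, and the part of the copies in the low values was not tested. The levels of mt-Co2, mt-Atp8, mt-Atp6, mt-Co3, mt-Nd3 and mt-Nd4l, and of the ATP synthase as a whole, are therefore uncertain. The same holds for mt-Nd4 and mt-Co1, matched in part, and for the sums of complex I and complex IV that include them.

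**Figure D3:**
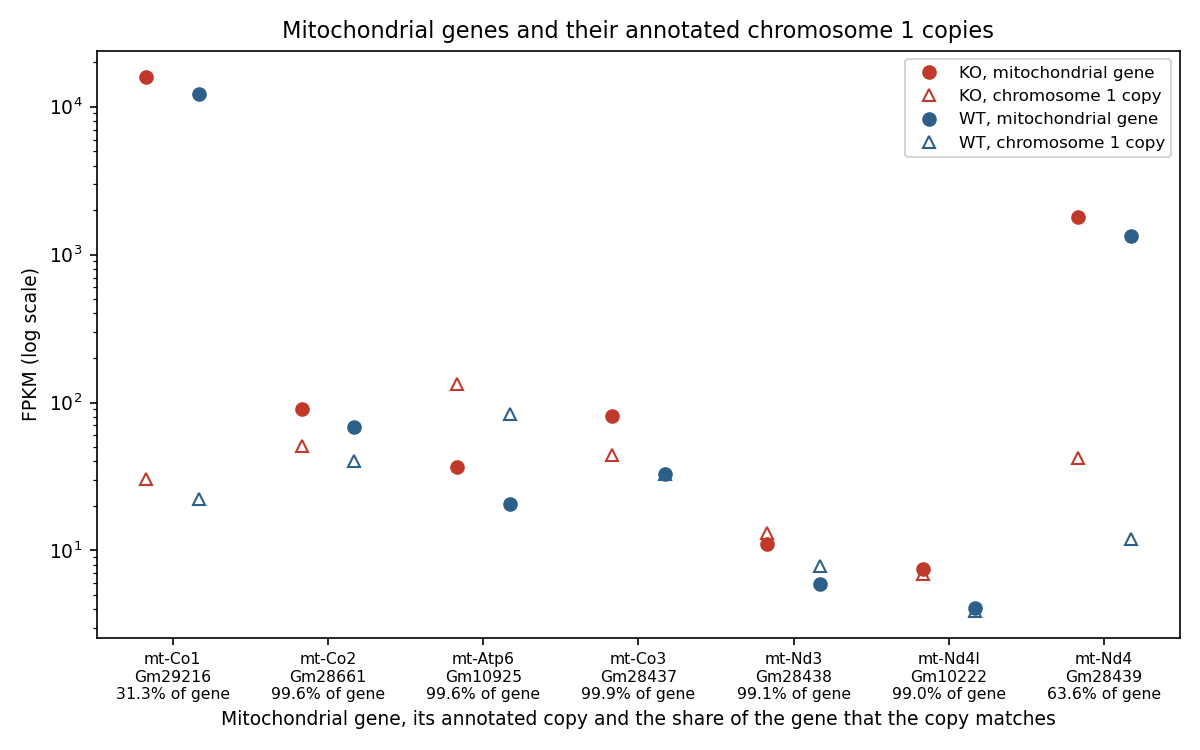
FPKM (vertical axis, log scale) of 7 mitochondrial genes (filled circles) and of their annotated chromosome 1 copies (open triangles) in the KO library (red, left) and the WT library (blue, right); the axis labels give the share of each gene that the copy matches. The copies of the 5 genes matched over 98.99% to 99.87% of their length lie at 0.552 to 4.08 times the gene. mt-Co1 and mt-Nd4, matched in part, lie far above their copies.

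Nuclear genes of the same complexes were set beside these values. Of 80 nuclear subunits listed for the respiratory chain and ATP synthase, 79 were measured and compared, of which 61 were higher (77.2%, against 41.3% of all compared genes) and 18 lower in the KO library, and none was past 2-fold. Their summed FPKM was 8355 in the KO library and 7514 in the WT library, a ratio of 1.11, against the 1.36 of the coding mitochondrial transcripts. The median log2 ratio was 0.15 over these 79 genes and -0.05 over all compared genes. At least 1.25-fold higher were 16 of the 79, against the 8.62% of all compared genes given above.

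By complex, the median log2 ratio was 0.11 for 36 complex I genes, 0.23 for 4 complex II genes, 0.05 for 9 complex III genes, 0.23 for 12 complex IV genes and 0.20 for 18 ATP synthase genes. Complex II, succinate dehydrogenase, has no subunit from the mitochondrial genome. All 4 of its genes were higher in the KO library, among them Sdha, the flavin-bearing subunit, with 152 FPKM in the KO library and 132 FPKM in the WT library. In complex I, the accessory subunit Ndufb9 had 194 FPKM in the KO library and 165 FPKM in the WT library. In complex III, 7 of the 9 genes were higher and 2 lower. Its most abundant gene, Cyc1, had 237 FPKM in the KO library and 230 FPKM in the WT library. Uqcrh, the hinge protein, had the highest log2 ratio of that list. It had 176 FPKM in the KO library and 126 FPKM in the WT library, 1.39-fold higher (1.33 to 1.46). In complex IV, the abundant Cox6a1 had 462 FPKM in the KO library and 478 FPKM in the WT library. The catalytic beta subunit of ATP synthase, Atp5b, had 519 FPKM in the KO library and 440.3 FPKM in the WT library, 1.18-fold higher (1.16 to 1.20).

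Genes that copy, process and translate mitochondrial RNA were described in the same way, beside the 41.3% higher and 58.7% lower of all compared genes and their median of -0.05. The list of mitochondrial transcription and DNA maintenance had a median log2 ratio of 0.08, with 18 of 25 genes higher (72%) and 7 lower. Its most abundant gene Esrra, a nuclear receptor that drives mitochondrial genes, had 102 FPKM in the KO library and 91.3 FPKM in the WT library. The coactivator Ppargc1a had 13.2 FPKM in the KO library and 11.1 FPKM in the WT library. Tfam, which packs mitochondrial DNA and starts its transcription and was chosen for its role after its values were seen, had 11.9 FPKM in the KO library and 10.3 FPKM in the WT library. The list of RNA processing and decay had a median of -0.04, with 14 genes higher (38.9%) and 22 lower of 36. Hsd17b10, a part of the ribonuclease that frees the 5′ ends of transfer RNAs, had 31.0 FPKM in the KO library and 31.5 FPKM in the WT library.

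The proteins of the mitochondrial ribosome had a median log2 ratio of -0.04, with 35 genes higher (43.8%) and 45 lower of 80, near the share and the median of all compared genes. The mitochondrial aminoacyl-tRNA synthetases had a median of -0.07, with 6 genes higher (27.3%) and 16 lower of 22. The most abundant ribosomal protein gene of that list, Mrpl34, had 48.7 FPKM in the KO library and 49.0 FPKM in the WT library. A list of general mitochondrial proteins (carriers, import channels, matrix enzymes) had a median of 0.09, with 19 of 25 genes higher (76%) and 6 lower. In it, Slc25a5, the ADP/ATP carrier, had 935 FPKM in the KO library and 884 FPKM in the WT library. Over all 267 genes compared on these 10 lists, the median was 0.03, against -0.05 over all compared genes. None of the 267 was at least 2-fold higher, against 1.61% of all compared genes, and none at least 2-fold lower, against 2.51%.

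**Figure D4:**
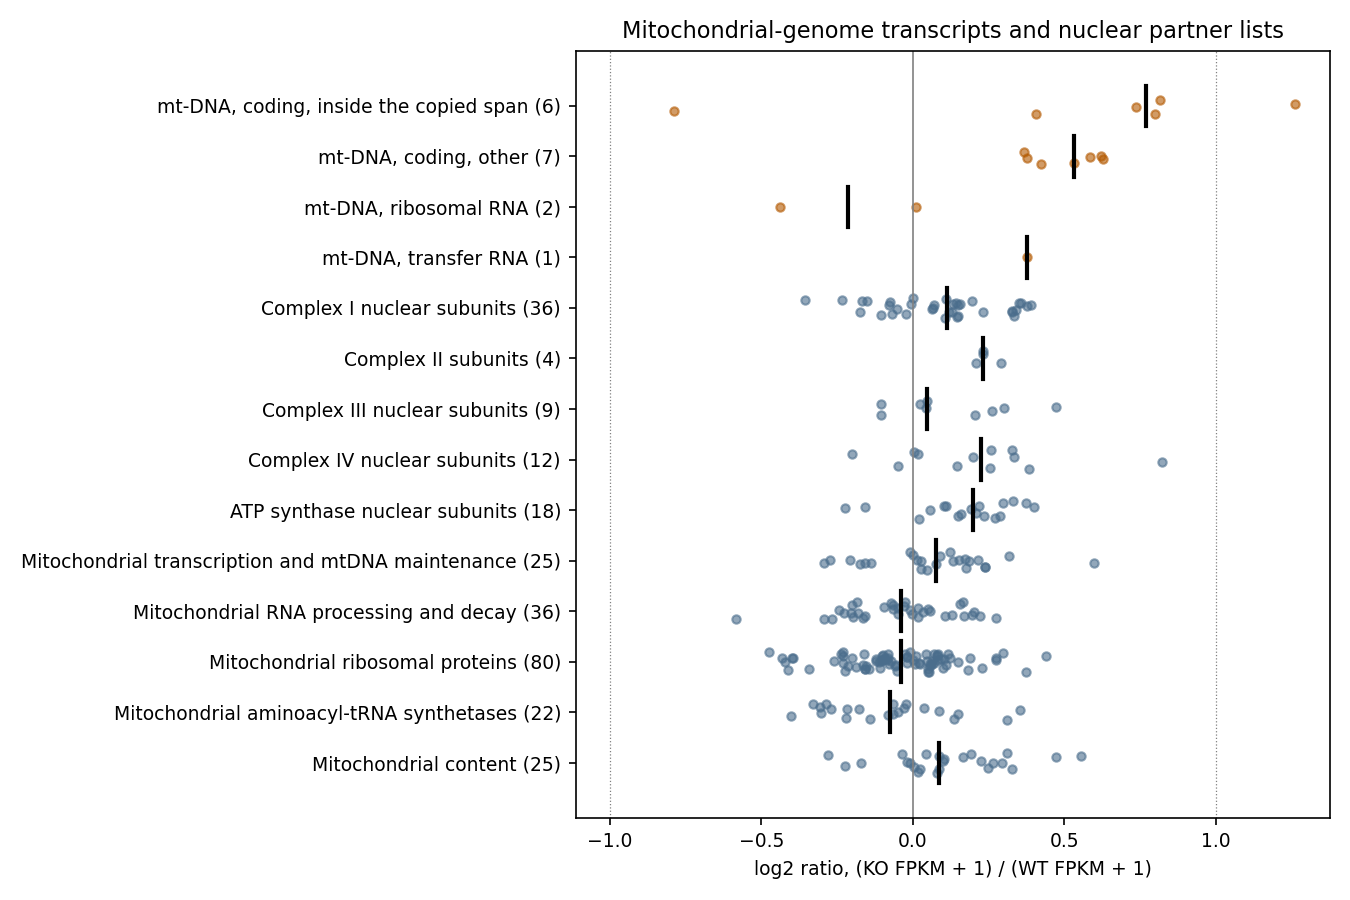
Log2 ratio of KO FPKM + 1 over WT FPKM + 1 (horizontal axis) for each mitochondrial transcript (orange) and each compared gene of 10 nuclear lists (blue), with the number of genes in brackets, black bars at the medians and dotted lines at 2-fold. The 7 coding mitochondrial genes outside the span or partly in it have a median of 0.53, and the medians of the nuclear lists run from -0.07 to 0.23.

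Genes of other cells and of RNA fractions differed as well. Across all compared genes, 41.3% were higher and 58.7% lower in the KO library, and 2.51% were at least 2-fold lower. Of 10 lymphocyte genes, all were lower in the KO library, with a summed FPKM of 16.7 in the KO library and 36.9 in the WT library, and Cd79a and Cd79b were past 2-fold. Of 10 enterocyte genes, 6 were higher and 4 lower, with a sum of 13515 FPKM in the KO library and 15121.5 FPKM in the WT library. Their median log2 ratio was 0.15, so the sum went the other way than the median. The most abundant, Fabp2, had 4103 FPKM in the KO library and 5325 FPKM in the WT library. Smooth muscle genes summed to 655 FPKM in the KO library and 596 FPKM in the WT library, with 7 of 9 higher. Genes of crypts and cycling cells summed to 529 FPKM in the KO library and 508 FPKM in the WT library, with 2 of 10 higher and 8 lower. Their median log2 ratio was -0.10. Most of both sums came from Olfm4, with 370 FPKM in the KO library and 336 FPKM in the WT library. Of RNAs kept in the nucleus, 3 of the 4 compared were higher in the KO library. Xist, with the highest FPKM averaged over both libraries, had 63.9 FPKM in the KO library and 60.7 FPKM in the WT library. Malat1 had 67.9 FPKM in the KO library and 49.3 FPKM in the WT library. Meg3 was lower, with 0.795 FPKM in the KO library and 1.19 FPKM in the WT library. No listed marker of these cell types was at 0 in both libraries. The part of cell composition and of RNA quality in the mitochondrial values was not tested.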

How the data were processed

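The authors deposited 1 table of FPKM values with a column per library. Bowtie2 2.2.3, HTSeq 0.6.0 and the build mm10 are named, per the submitters' processing notes, without their roles; the annotation, the strand setting and the treatment of reads with several matches are not stated in the sources used here. Groups came from the titles. Gene identifiers were joined to GENCODE M21 (GRCm38), which gave classes, positions and exon lengths. Reads were recovered as FPKM times length, whole within 0.01 reads for 90.5% of the non-zero values of either library. They were used for intervals (scipy 1.17.1), read counts, shares of reads, folds of summed reads and the sums of a gene with its copy. The step was tested on data simulated with the same gene lengths. That test could not show errors from lengths that differ from those behind the deposited values. Genes with at least 1 FPKM in at least 1 library were compared by log2 of FPKM + 1. Copies were sought with blastn of BLAST+ 2.17.0 among all GENCODE transcripts (at least 100 bases aligned at 90% identity). For 3 reads on a gene of 1 kb the FPKM is 0.170 in the KO library and 0.172 in the WT library.

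The members and lists were chosen with earlier results of these data known. Named are all coding and ribosomal RNA members, the transfer RNA, and members of each nuclear list from the 3 with the highest mean FPKM or past 2-fold; Tfam and Cox7a1 were added after their values were seen. Alternatives were other pseudocounts, filters and scalings, and settings without the copied genes.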

Additional observations from a re-analysis of the deposited data

How the results depend on the processing

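With 1 library per genotype no replicate could be left out. No paired analysis was possible because each genotype has a single library. The median log2 ratio of the 13 coding transcripts, 0.59, was 0.53 with a pseudocount of 5, 0.56 with equal FPKM sums over all genes, 0.59 with equal sums outside the mitochondrial genes, 0.62 when the 20 most abundant genes were also left out of the sum, 0.63 when centred on all compared genes, 0.60 over the 12 genes of at least 5 FPKM, 0.53 without the 6 copied genes and 0.15 with equal sums of the 7 abundant coding genes, the last 2 chosen after seeing the data. The count of coding genes at least 2-fold lower was 1 with a pseudocount of 0.1, which is mt-Atp8. The count at least 2-fold higher was 0 without the 6 copied genes, with copies added and with equal coding sums, since mt-Co3 is then left out or below 2-fold. The median of the ribosomal RNAs, -0.21, was -0.24 with equal sums over all genes, -0.18 without the 20 most abundant genes, -0.17 when centred, and -0.65 with equal coding sums, an alternative added after seeing the data, which by construction multiplies all KO values by 0.738 and moves the median of all compared genes by -0.35. mt-Tp lay between 0.35 and 0.42, except with equal coding sums, where it was -0.062. That scaling also changed the sign of mt-Co1, mt-Co2, mt-Cytb, mt-Nd4 and mt-Rnr2, 6 members in all. Under the other alternatives run for single members, mt-Rnr2 alone changed sign.

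The mitochondrial share was 12.5% in the KO library and 9.46% in the WT library without the 20 most abundant other genes, 5.46% in the KO library and 4.11% in the WT library as a share of recovered reads, and 4.81% in the KO library and 3.61% in the WT library as a share of the denominators. The median of the nuclear partner genes, 0.033, was 0.039 with a pseudocount of 0.1, 0.023 with 5 in its place, 0.063 at 5 FPKM and 0.039 with equal sums outside the mitochondrial genes. Depth limits mt-Atp8, mt-Nd4l and mt-Nd3, which rest on few reads. The intervals leave out variation between mice.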

Other observations

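A second insertion of mitochondrial DNA, on chromosome 2, was listed at low levels. Gm13340, which matches all of mt-Co1 at 97.6% identity, had 4.87 FPKM in the KO library and 4.12 FPKM in the WT library, and its interval of 0.912 to 1.54 around a fold of 1.18 spans 1. Gm13341, which matches mt-Co2 at 95.9% identity, had 1.85 FPKM in the KO library, from 22 reads, and 0.854 FPKM in the WT library, from 10 reads. Gm13339, which matches the second part of mt-Nd2 at 96.7%, had 4 reads in the KO library and 0 in the WT library. The more distant copies Gm4076 of mt-Nd5 and Gm11408 of mt-Nd6 were listed at 0 in both libraries.

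Among the nuclear subunits, the highest log2 ratio, 0.82, belonged to Cox7a1, a form of a complex IV subunit known from heart and skeletal muscle, which had 63.8 FPKM in the KO library and 35.6 FPKM in the WT library, 1.79-fold higher (1.57 to 2.06). It was chosen after its values were seen. Of the synthetases, Lars2, which charges the mitochondrial leucine transfer RNAs, had 19.99 FPKM in the KO library and 15.9 FPKM in the WT library, while Kars, which serves cytosol and mitochondria, had 17.6 FPKM in the KO library and 22.4 FPKM in the WT library.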
